A study of Mus musculus with 6 samples.

Results

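The mitochondrial chromosome carries its own small set of genes, and 15 of them stand among the 28450 genes of a liver RNA sequencing table from Acsm3 knockout and control mice. They were taken as every row whose symbol begins with mt-, and all 15 lie on the mitochondrial chromosome. Of these, 13 encode proteins and 2 encode rRNAs. The tRNA genes of this chromosome, 22 in the GENCODE M21 annotation, are not analysed here, since none of the rows used carries a tRNA symbol. The study compared 3 male Acsm3 knockout mice with 3 male control mice labelled WT, all aged 12 weeks and on a normal diet, with 1 library of poly(A)-selected liver RNA for each animal. Acsm3 is a nuclear gene for a medium-chain acyl-CoA synthetase of the mitochondrial matrix. The labels do not state the strain, the part of Acsm3 that was disrupted or the cells in which it was disrupted.

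Mitochondrial DNA is transcribed from both strands as long precursors that start in the control region and are cut into single RNAs, mostly at the tRNAs that lie between the genes. The rRNAs of the mitochondrial ribosome lie nearest to the start of the precursor that holds most of the genes, and they are followed by the protein genes. The mitochondrial mRNAs encode core subunits of the respiratory complexes I, III and IV and of ATP synthase, and most receive short poly(A) tails after cutting, so oligo(dT) selection captures them. The rRNAs carry much shorter tails, and their level in such libraries also depends on how they were captured.

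All libraries were close in depth, with 15302000 to 16344000 fragments each, as implied by the steps between low FPKM values. FPKM are fragment counts scaled to the length of the gene and to the size of the library. Acsm3 was lower in every knockout liver, at 0.668, 2.92 and 1.08 FPKM in knockouts 1, 2 and 3, against 33.2, 34.4 and 32.2 FPKM in controls 1, 2 and 3 (log2 fold change -3.84 ± 0.29, limma adjusted p = 0.00338). Of the 10996 genes that averaged 1 FPKM or more over the 6 libraries, 16.5% passed an adjusted p of 0.05, 13.9% higher and 2.61% lower in the knockouts (limma). Fold changes are differences of log2(FPKM + 1), knockout minus control, ± the SE moderated by limma. Their median over all genes tested was 0.13 and not 0, and it was 0.00 after median-ratio rescaling of the libraries. A member at 0 therefore lay slightly below the middle of all genes. Knockout 3 had the highest value of the knockouts for each member except mt-Nd4l.

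All 15 members passed the filter on low values. Both rRNAs fell, and of the 13 protein genes 3 fell, mt-Nd1, mt-Nd2 and mt-Nd3, and 0 rose (limma, adjusted p of 0.05; 2.61% of all genes tested fell). The 4 members nearest to the start of the chromosome, mt-Rnr1, mt-Rnr2, mt-Nd1 and mt-Nd2, were all among the 5 that fell. In 2 rRNA and 4 protein genes every knockout value lay below every control value, an arrangement seen in 7.91% of all genes tested (in 41.8% the groups did not overlap in either direction). The median log2 fold change was -0.99 over the 2 rRNAs and -0.03 over the 13 protein genes, beside 0.13 over all genes tested. In RNA from whole liver, fewer cells of a type and less RNA per cell cannot be told apart.

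**Figure D1:**
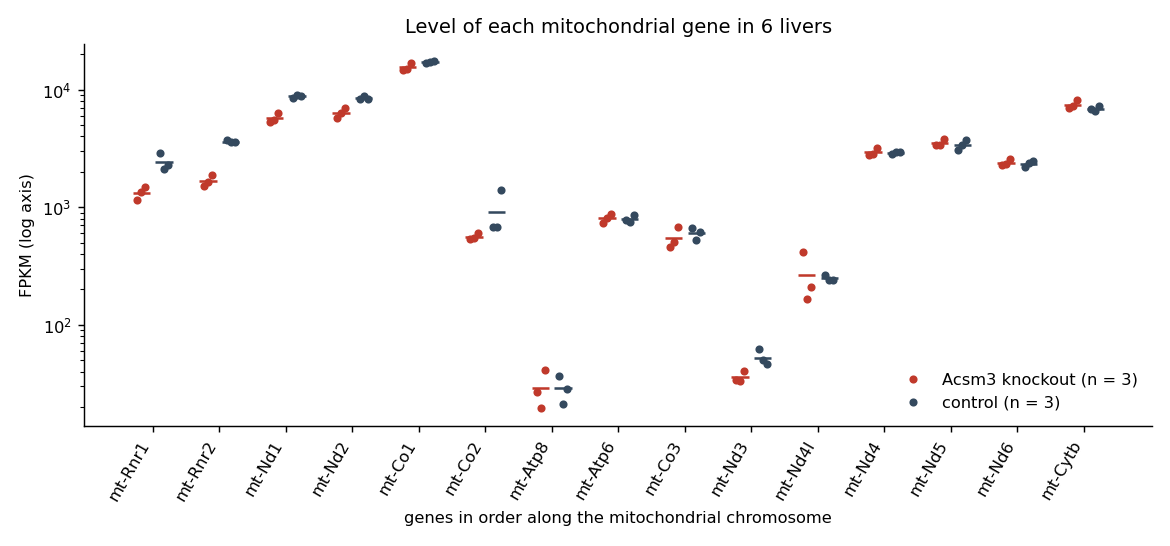
FPKM of each of the 15 mitochondrial genes on a log axis, in order along the chromosome, with 1 point for each mouse and a line at the mean of each group (n = 3). Knockout points lie below all control points for mt-Rnr1, mt-Rnr2, mt-Nd1, mt-Nd2, mt-Co2 and mt-Nd3, and overlap them for the other genes.

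The rRNAs showed the largest falls of the 15 members. mt-Rnr2 (ENSMUSG00000064339), the 16S rRNA of the large ribosomal subunit, lies on the plus strand at positions 1094 to 2675 of the mitochondrial chromosome (GRCm38). It was at 1501, 1632 and 1858 FPKM in knockouts 1, 2 and 3, against 3691, 3592 and 3556 FPKM in controls 1, 2 and 3. The groups did not overlap, and the controls lay close together. The means were 1664 ± 181 FPKM in knockout and 3613 ± 69.8 FPKM in control livers (SD, n = 3), a 2.17-fold higher level in control. mt-Rnr2 changed by -1.12 ± 0.10 on the log2 scale (limma adjusted p = 0.00546) and passed in all 6 fits that left out 1 mouse (adjusted p 0.00302 to 0.0307).

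mt-Rnr1 (ENSMUSG00000064337), the 12S rRNA of the small ribosomal subunit, lies just before it, at positions 70 to 1024. It was at 1147, 1348 and 1474 FPKM in knockouts 1, 2 and 3, against 2863, 2109 and 2265 FPKM in controls 1, 2 and 3. Control 1 was the highest, and the lowest control still lay above the highest knockout. mt-Rnr1 changed by -0.86 ± 0.15 on the log2 scale (limma adjusted p = 0.0189). The call was lost without knockout 1, knockout 2 or control 3 (adjusted p up to 0.0662), while the log2 fold change kept its sign, between -0.95 and -0.73. The ratio of 16S to 12S rRNA, computed on FPKM, was 1.31, 1.21 and 1.26 in knockouts 1, 2 and 3 and 1.29, 1.70 and 1.57 in controls 1, 2 and 3, so the groups overlapped (two-sided exact permutation test, p = 0.2).

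The rRNAs are set apart from each other and from mt-Nd1 by tRNA genes, which are shown here because they mark where the precursor is cut on either side of mt-Rnr2. mt-Tv, the valine tRNA at positions 1025 to 1093, joins mt-Rnr1 to mt-Rnr2. mt-Tl1, a leucine tRNA at positions 2676 to 2750, joins mt-Rnr2 to mt-Nd1. Both are given 5′ to 3′ on the plus strand from the GENCODE M21 transcripts.
mt-Tv: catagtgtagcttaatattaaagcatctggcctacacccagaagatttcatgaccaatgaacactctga
mt-Tl1: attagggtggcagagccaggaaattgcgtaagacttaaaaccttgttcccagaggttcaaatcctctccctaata
Neither tRNA has a value in the data used here.

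Some RNAs without a poly(A) tail were also listed, and they are given in sets chosen after the data were seen. Over 524 genes of snoRNAs, scaRNAs and snRNAs, summed FPKM ranged from 220 to 319 in knockouts and from 208 to 233 in controls. Over 50 replication-dependent histone genes the sums ranged from 93.5 to 169 FPKM in knockouts and from 51.6 to 120 FPKM in controls. Nuclear rRNA genes, 56 in all, summed to 79.4, 115 and 58.8 FPKM in knockouts 1, 2 and 3, against 169, 147 and 56.6 FPKM in controls 1, 2 and 3. All these sums overlapped between the groups, those of the nuclear rRNA genes through control 3 alone. Their part in the rRNA difference was not tested.

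mt-Nd1 and mt-Nd2, which follow the rRNAs, encode core subunits of the membrane arm of complex I, the NADH dehydrogenase of the respiratory chain. mt-Nd1 (ENSMUSG00000064341, positions 2751 to 3707) was at 5271, 5481 and 6365 FPKM in knockouts 1, 2 and 3, against 8389, 9041 and 8813 FPKM in controls 1, 2 and 3. Every knockout lay below every control, with a log2 fold change of -0.62 ± 0.11 (limma adjusted p = 0.02). mt-Nd2 (ENSMUSG00000064345, positions 3914 to 4951) was at 5749, 6283 and 6919 FPKM in knockouts 1, 2 and 3, against 8384, 8810 and 8366 FPKM in controls 1, 2 and 3. Here too the groups did not overlap, at a log2 fold change of -0.44 ± 0.11 (limma adjusted p = 0.0402). Both rest on at least 78587 fragments in every library.

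mt-Nd3 (ENSMUSG00000064360, positions 9459 to 9806), another membrane subunit of complex I, lies in the middle of the chromosome and was listed at a far lower level. It was at 33.9, 33.1 and 40.1 FPKM in knockouts 1, 2 and 3, against 61.9, 49.7 and 46.1 FPKM in controls 1, 2 and 3. The groups did not overlap, though knockout 3 and control 3 lay close, at a log2 fold change of -0.54 ± 0.13 (limma adjusted p = 0.038). mt-Nd3 has a near-identical copy in the nuclear genome, described further on, and rests on 176 to 352 fragments. mt-Nd1, mt-Nd2 and mt-Nd3 passed in the fit without knockout 3 and lost their calls when any other mouse was left out (adjusted p 0.0504 to 0.136). They kept their sign in each of these fits.

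mt-Co1 (ENSMUSG00000064351, positions 5328 to 6872), the catalytic subunit of cytochrome c oxidase and the most abundant member, comes next along the chromosome. It was at 14713, 14872 and 16859 FPKM in knockouts 1, 2 and 3, against 16771, 17204 and 17358 FPKM in controls 1, 2 and 3. Knockout 3 reached into the range of the controls, and the log2 fold change of -0.15 ± 0.11 did not pass (limma adjusted p = 0.378). mt-Co2, which encodes the subunit that takes electrons from cytochrome c, was at 532, 545 and 603 FPKM in knockouts 1, 2 and 3, against 681, 679 and 1394 FPKM in controls 1, 2 and 3. All knockouts were lower, but control 3 stood far above the other controls, and the log2 fold change of -0.63 ± 0.28 did not pass (limma adjusted p = 0.157). Without control 3 it was -0.28.

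The remaining plus-strand members did not pass the test. mt-Nd4, a large antiporter-like subunit of complex I, averaged 2939 ± 200.3 FPKM in knockout livers and 2906 ± 65.9 FPKM in control livers (SD, n = 3). mt-Nd5, another such subunit, averaged 3497 ± 229 FPKM in knockout livers and 3386 ± 345 FPKM in control livers (SD, n = 3). The values of both genes overlapped between the groups. mt-Cytb (ENSMUSG00000064370, positions 14145 to 15288), the cytochrome b of complex III, was at 6980, 7272 and 8089 FPKM in knockouts 1, 2 and 3, against 6775, 6539 and 7248 FPKM in controls 1, 2 and 3. Its groups overlapped, and its log2 fold change of 0.12 ± 0.11 was the highest of the 15 members (limma adjusted p = 0.467). mt-Atp6 and mt-Atp8, subunits of ATP synthase, had log2 fold changes of 0.02 ± 0.10 and -0.01 ± 0.29. mt-Co3, of cytochrome c oxidase, and mt-Nd4l, of complex I, were at -0.14 ± 0.17 and -0.03 ± 0.32, the wide error of mt-Nd4l coming with values of 418, 164 and 210 FPKM in knockouts 1, 2 and 3, against 266, 239 and 243 FPKM in controls 1, 2 and 3. For these 8 genes, mt-Nd6 included, adjusted p lay between 0.467 and 0.986 (limma), which does not show that they were equal in the groups.

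mt-Nd6 (ENSMUSG00000064368, positions 13552 to 14070), a further complex I subunit, is the 1 member of the 15 on the minus strand and is made from the other precursor. It was at 2288, 2306 and 2578 FPKM in knockouts 1, 2 and 3, against 2190, 2352 and 2488 FPKM in controls 1, 2 and 3. The groups overlapped throughout (log2 fold change 0.03 ± 0.10, limma adjusted p = 0.862). The sources do not state a strand setting, so fragments of mt-Nd6 and of plus-strand RNA across the same bases cannot be told apart. The ratio of mt-Nd6 to mt-Nd5, with which it shares 14 bases on opposite strands, averaged 0.684 ± 0.00288 in knockouts and 0.694 ± 0.0265 in controls (SD, n = 3).

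**Figure D2:**
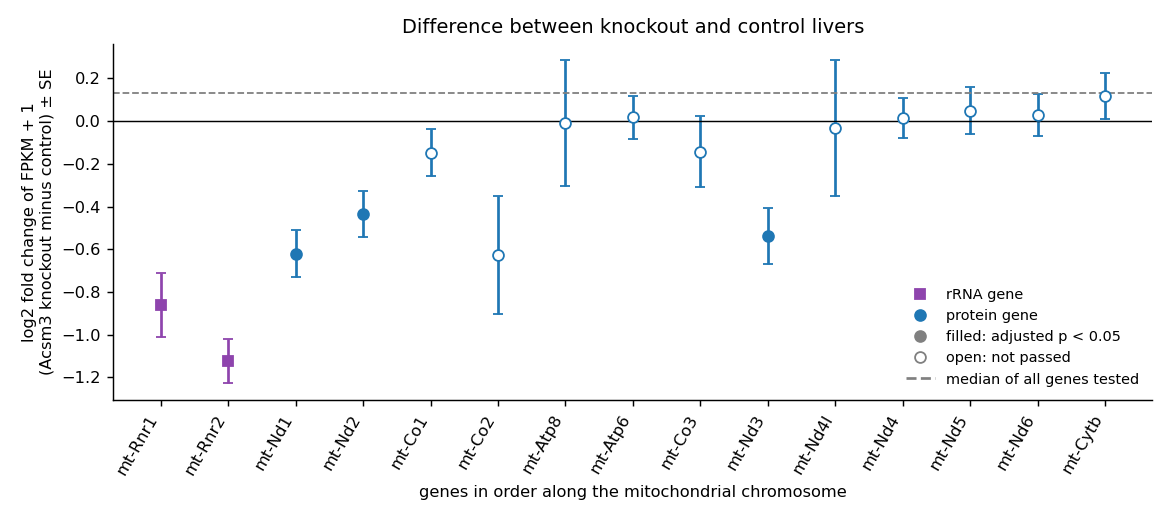
Log2 fold change of FPKM + 1 (knockout minus control) ± SE for the 15 genes in order along the chromosome, with squares for rRNA and circles for protein genes, filled where the adjusted p was under 0.05. The values run from -0.86 and -1.12 for the rRNAs through -0.62 for mt-Nd1 and -0.44 for mt-Nd2 to between -0.15 and 0.12 for the later genes, other than mt-Co2 and mt-Nd3, and the dashed line marks the median of all genes tested.

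Along the plus strand, the first 4 members fell. The later ones lay between -0.15 and 0.12 on the log2 scale, except mt-Co2 (-0.63) and mt-Nd3 (-0.54). Across the 14 plus-strand members, the midpoint of the gene and its log2 fold change had a Spearman correlation of 0.83, and across the 12 protein genes among them 0.74. These correlations are a description, as the genes share the same 6 libraries and overlap in precursor. They include the 6 members that lie within the nuclear copy described further on, for which the counting of fragments is not stated. The ratio of 2 members within a library does not depend on how the libraries were scaled. mt-Rnr2 over mt-Cytb was 0.215, 0.224 and 0.23 in knockouts 1, 2 and 3, against 0.545, 0.549 and 0.491 in controls 1, 2 and 3. mt-Nd1 over mt-Cytb was 0.755, 0.754 and 0.787 in knockouts 1, 2 and 3, against 1.24, 1.38 and 1.22 in controls 1, 2 and 3, so that mt-Nd1 was the higher of the 2 genes in every control and the lower in every knockout. mt-Nd2 over mt-Cytb was 0.824, 0.864 and 0.855 in knockouts 1, 2 and 3, against 1.24, 1.35 and 1.15 in controls 1, 2 and 3. mt-Co1 over mt-Cytb averaged 2.08 ± 0.0316 in knockouts and 2.50 ± 0.12 in controls (SD, n = 3). Each of these 4 ratios separated the groups fully, with p = 0.1 by a two-sided exact permutation test, the smallest p that 3 against 3 mice allow, and they were chosen after the values were seen, among 9 ratios computed.

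Ratios of adjacent genes shifted for some pairs. mt-Rnr2 over mt-Nd1 was 0.285, 0.298 and 0.292 in knockouts 1, 2 and 3, against 0.44, 0.397 and 0.404 in controls 1, 2 and 3. mt-Nd1 over mt-Nd2 was 0.917, 0.872 and 0.92 in knockouts 1, 2 and 3, against 1.001, 1.03 and 1.05 in controls 1, 2 and 3. In both cases each knockout lay below each control (two-sided exact permutation test, p = 0.1 each, the smallest possible). For mt-Rnr2 over mt-Rnr1, the pair nearest to the start, the groups overlapped, and the log2 difference of the ratio was -0.26, so mt-Rnr1, which lies first, was not the lower relative to its neighbour.

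Relative to the summed FPKM of the 13 protein genes in the same library, the members split in both directions. mt-Rnr2, which is not itself part of the sum, amounted to 3.61 ± 0.131% of it in knockouts and to 6.89 ± 0.347% in controls (SD, n = 3). mt-Nd1 held 12.4 ± 0.272% in knockouts and 16.7 ± 0.497% in controls, and mt-Nd2 held 13.7 ± 0.438% in knockouts and 16.2 ± 0.7% in controls (SD, n = 3). mt-Cytb held 16.2 ± 0.137% in knockouts and 13.1 ± 0.518% in controls, and mt-Nd5 held 7.61 ± 0.135% in knockouts and 6.44 ± 0.454% in controls (SD, n = 3). The share of a protein gene must rise for some when it falls for others, so these values show the balance among the protein genes and not a rise in amount. The differences in these percentages reached p = 0.1 for each of these genes, the smallest value possible (two-sided exact permutation test).

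**Figure D3:**
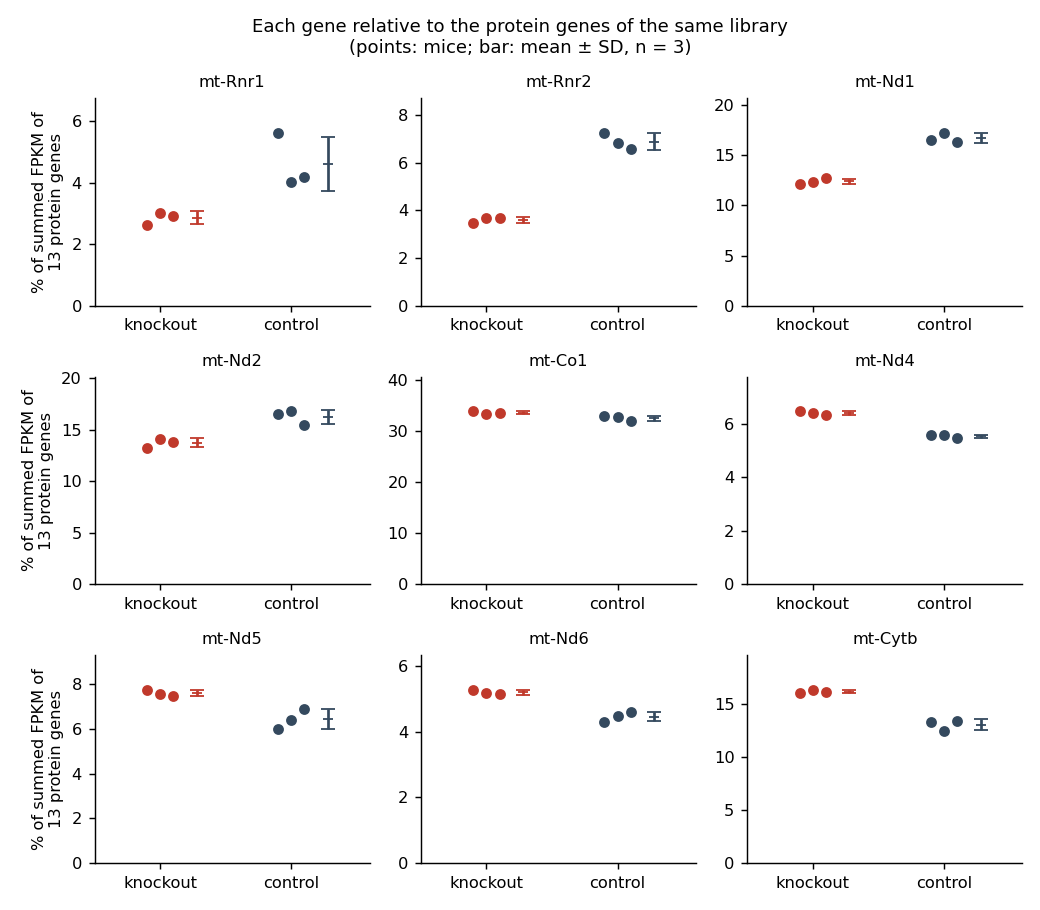
FPKM of 9 mitochondrial genes as a percentage of the summed FPKM of the 13 protein genes in the same library, with 1 point for each mouse and mean ± SD beside the points (n = 3), knockout left of control. The rRNAs, which are not part of the sum, and mt-Nd1 and mt-Nd2 are at a smaller percentage in every knockout than in any control, and mt-Co1, mt-Nd4, mt-Nd5, mt-Nd6 and mt-Cytb at a larger one.

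In all, the 15 genes held 12.6%, 12.9% and 14.2% of summed FPKM in knockouts 1, 2 and 3, against 14.5%, 15.1% and 15.5% in controls 1, 2 and 3. Knockout 3 lay nearest to the controls, and every knockout was below every control. The rRNAs held 0.809 ± 0.0797% in knockouts and 1.55 ± 0.0972% in controls (SD, n = 3). The protein genes held 12.5 ± 0.772% in knockouts and 13.5 ± 0.588% in controls, and here the groups overlapped.

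The ends of the genes are shown because these RNAs were captured by their poly(A) tails, and some of the genes rely on the tail to finish their stop codon. As annotated, 10 of the 13 protein genes end in a full stop codon. The other 3, mt-Co3, mt-Nd4 and mt-Cytb, end in its first base alone, which polyadenylation extends to a stop codon. Whether the last bases of a gene also belong to a neighbouring tRNA gene, and are cut off with it, was not checked. More genes than these 3, those that fell included, may therefore rely on the tail. The last 24 bases follow, 5′ to 3′ on the plus strand, with the annotated part of the stop codon in capitals (GENCODE M21 transcripts, GRCm38).
mt-Nd1: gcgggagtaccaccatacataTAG
mt-Nd2: ctagccccccaactaattaccTAG
mt-Nd3: aaaggattagaatgaacagagTAA
mt-Co1: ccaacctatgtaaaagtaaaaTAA
mt-Co3: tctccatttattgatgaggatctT
mt-Nd4: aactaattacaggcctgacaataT
mt-Cytb: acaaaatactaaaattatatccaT
The 3 protein genes that fell, mt-Nd1, mt-Nd2 and mt-Nd3, are annotated with a full stop codon, and so are 7 that did not pass. The longest uninterrupted run of A within a gene, a feature that oligo(dT) could bind, was 5 bases in mt-Rnr1, 7 in mt-Rnr2, 6 in mt-Nd1, 8 in mt-Nd2 and 5 in mt-Nd3, and it ranged from 3 to 8 over the 13 protein genes. The longest run of the 13 was in mt-Nd2, which fell. Runs of 7 bases, longer than in mt-Nd1 and mt-Nd3, lay in mt-Co1, mt-Nd4 and mt-Nd5, which did not pass. The part of such runs in the differences was not tested.

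A stretch of mouse chromosome 1 holds a nuclear copy of part of the mitochondrial chromosome, and it limits what can be said of the members in the middle. Aligned to all other transcripts of the table, mt-Co2, mt-Atp6, mt-Co3 and mt-Nd4l matched a chromosome 1 pseudogene at 100% identity over nearly their whole length, and mt-Nd3 matched one with 1 difference in 345 bases. mt-Nd4 matched over 876 of 1378 bases and mt-Co1 over 483 of 1545 bases. Copies on other chromosomes were listed at no more than 15.7 FPKM. No match of at least 100 bases and 90% identity was found for mt-Rnr1, mt-Rnr2, mt-Nd1, mt-Atp8 or mt-Cytb, and mt-Nd2 matched over 510 bases a pseudogene on chromosome 2, Gm13339, at a mean of 3.56 FPKM in knockouts and 4.41 FPKM in controls. Both rRNAs, mt-Nd1 and mt-Nd2 thus had no abundant copy among the transcripts searched.

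The mt-Nd3 copy Gm28438 lies on the minus strand of chromosome 1 at 24612775 to 24613119 (GRCm38). Its first 40 bases are shown beside those of mt-Nd3 because the 1 difference between them, T3C (counted from 1 at the 5′ end of mt-Nd3, with the mitochondrial base first), falls there and is in capitals. A fragment that does not cover it cannot be assigned by sequence.
mt-Nd3: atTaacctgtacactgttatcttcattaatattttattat
Gm28438: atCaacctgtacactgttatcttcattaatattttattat
Gm28438 was at 147, 188 and 188 FPKM in knockouts 1, 2 and 3, against 225, 209 and 219 FPKM in controls 1, 2 and 3, several times the level listed for mt-Nd3 itself.

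The members that lie wholly within the copied stretch, 6 when mt-Atp8 between mt-Co2 and mt-Atp6 is counted, were listed at 19.5 to 1394 FPKM, and the other 7 protein genes at 2190 to 17358 FPKM. The sources do not state how fragments that fit both places were counted, so levels in the stretch cannot be compared with those of other members. Of the copies, Gm28661 (the copy of mt-Co2) and Gm10222 (the copy of mt-Nd4l) fell, beside 2.61% of all genes tested. Their log2 fold changes were -0.36 ± 0.08 and -0.30 ± 0.08 (limma adjusted p = 0.0344 and 0.0409). Gm28661 did not pass when any mouse but knockout 3 was left out, and Gm10222 when any of the 6 mice was left out. Gm29216 (the copy of part of mt-Co1) was at -0.43 ± 0.13 and Gm28438 at -0.32 ± 0.11 (limma adjusted p = 0.0594 and 0.0916), and Gm10925, Gm28437, Gm28439, Gm13340 and Gm13339 lay between -0.26 and 0.01. Summing the fragments of each member and its copy, an alternative added after the data were seen, gave mt-Nd3 a log2 fold change of -0.37 ± 0.11, which no longer passed (limma adjusted p = 0.0609). With the sum, mt-Co2 was at -0.53 ± 0.19 (limma adjusted p = 0.0977) and the other 5 members with a copy on chromosome 1 had adjusted p between 0.374 and 0.94.

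**Figure D4:**
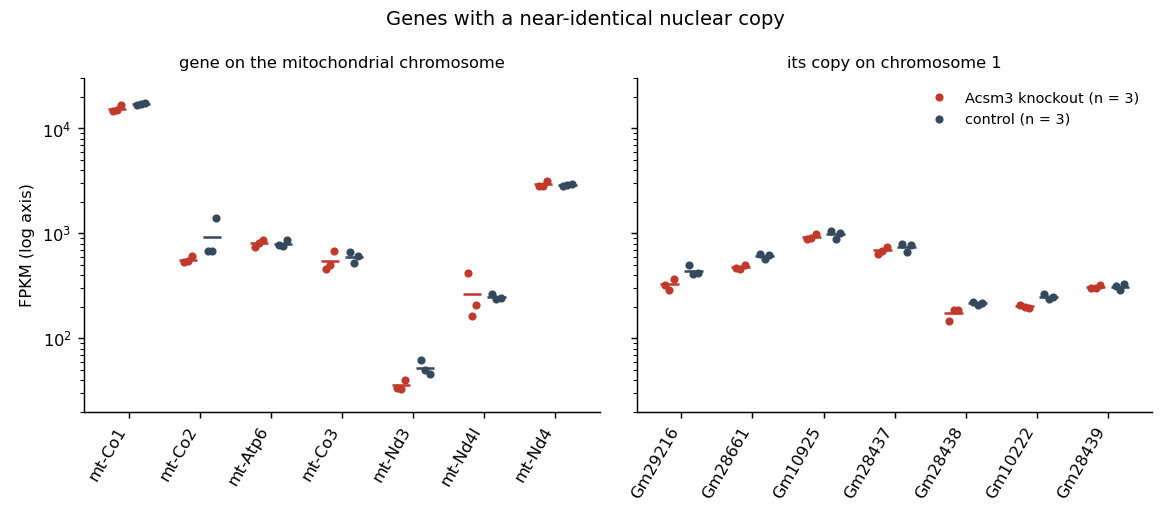
FPKM on a log axis of 7 mitochondrial genes (left) and of their copies on chromosome 1 (right), with 1 point for each mouse and a line at the mean of each group (n = 3). mt-Nd3, at 33.1 to 61.9 FPKM, lies below its copy Gm28438, at 147 to 225 FPKM, and mt-Co1 and mt-Nd4, copied only in part, lie far above theirs.

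The nuclear genes whose products join the mitochondrially encoded proteins in the same complexes also fell in part. Of 73 tested nuclear subunits of complexes I, III and IV and ATP synthase, 14 fell and 0 rose (limma; 2.61% of all genes tested fell), with a median log2 fold change of -0.28. After median-ratio rescaling 47 were lower and 0 higher, beside 6.69% lower and 7.64% higher of all genes tested under that scaling. Complex I was represented by Ndufa5 (-0.53 ± 0.14), Ndufb10 (-0.48 ± 0.11), Ndufb11 (-0.47 ± 0.10) and Ndufa11 (-0.36 ± 0.09). Complex III was represented by Uqcr10 (-0.70 ± 0.11), Uqcrh (-0.51 ± 0.09) and Uqcrb (-0.49 ± 0.12), and cytochrome c oxidase by Cox7b (-0.60 ± 0.11), Cox7c (-0.57 ± 0.14) and Cox6c (-0.42 ± 0.09). ATP synthase was represented by Atp5h (-0.46 ± 0.09), Atp5j2 (-0.44 ± 0.10), Atp5o (-0.41 ± 0.07) and Atp5g1 (-0.35 ± 0.09). These 14 genes had limma adjusted p of 0.0144 to 0.0431. Uqcr10 and Cox7b lost their calls without knockout 2 or control 2, and the other 12 when any mouse but knockout 3 was left out, Cox7c and Atp5g1 also without knockout 3. By complex, 4 of 35 complex I subunits, 3 of 9 complex III subunits, 3 of 11 complex IV subunits and 4 of 18 ATP synthase subunits fell. Complex II, which has no mitochondrially encoded subunit, had 1 of 4 tested genes lower, Sdhd (-0.50 ± 0.07, limma adjusted p = 0.0122), which just lost its call without control 3 (adjusted p = 0.0502).

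Of the nuclear genes that copy, transcribe and process mitochondrial DNA and RNA, 0 passed on log2(FPKM + 1). The 4 lists (transcription and replication of mitochondrial DNA, RNA processing and decay, tRNA and rRNA modification, translation factors) held 66 tested genes. Limma called 0 of them, beside 13.9% higher and 2.61% lower of all genes tested. An unadjusted limma p under 0.05 was reached by 11 of the 66, and the share of all genes at that p is not given here. The count called was 0 after median-ratio rescaling, beside 7.64% higher and 6.69% lower of all genes tested. Voom on recovered fragments called 1 higher, Lig3 (0.37, adjusted p = 0.0414), and 0 lower, beside 1819 higher and 325 lower of 10985 genes. The median log2 fold change was 0.04 on log2(FPKM + 1). Polrmt, the mitochondrial RNA polymerase, averaged 4.32 ± 0.579 FPKM in knockouts and 4.09 ± 0.639 FPKM in controls (SD, n = 3, limma adjusted p = 0.738). Tfam, which packages mitochondrial DNA and starts its transcription, averaged 12.0 ± 0.312 FPKM in knockouts and 12.8 ± 0.639 FPKM in controls (SD, n = 3, limma adjusted p = 0.384). Lrpprc, which stabilises mitochondrial mRNAs, averaged 17.01 ± 1.11 FPKM in knockouts and 18.7 ± 0.403 FPKM in controls (SD, n = 3, limma adjusted p = 0.242). These 3 genes were chosen for their roles, outside the rule for named genes. By that rule, the members of smallest p in each list were the nuclease Mgme1 (0.32 ± 0.09) and the DNA ligase Lig3 (0.29 ± 0.08), the RNase P subunit Prorp (0.24 ± 0.08) and the exoribonuclease Rexo2 (0.33 ± 0.12), the pseudouridine synthase Pus1 (0.33 ± 0.09) and the queuine transferase subunit Qtrt1 (0.51 ± 0.16), and the ribosome recycling factor Gfm2 (0.20 ± 0.07) and the initiation factor Mtif3 (-0.19 ± 0.12), with limma adjusted p from 0.0519 to 0.326.

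The mitochondrial ribosomal proteins are the partners of the 2 rRNAs. Of 77 tested mitochondrial ribosomal protein genes, 3 fell and 1 rose, at a median log2 fold change of -0.08 (limma), beside 2.61% lower and 13.9% higher of all genes tested. After median-ratio rescaling 14 were lower and 0 higher, beside 6.69% lower and 7.64% higher of all genes tested. The calls were Mrps16 (-0.41 ± 0.10), Mrps21 (-0.39 ± 0.08) and Mrpl15 (-0.35 ± 0.08), which fell, and Mrps18b (0.35 ± 0.09), which rose (limma adjusted p 0.0293 to 0.0461). Each of the 4 lost its call when any mouse but knockout 3 was left out, and Mrps16 and Mrps18b also without knockout 3. Of 15 tested mitochondrial aminoacyl-tRNA synthetases, Lars2, which charges the leucine tRNAs, fell to 8.35, 11.2 and 9.70 FPKM in knockouts 1, 2 and 3, against 19.3, 17.02 and 13.4 FPKM in controls 1, 2 and 3 (log2 fold change -0.70 ± 0.15, limma adjusted p = 0.0298). Iars2, which charges the isoleucine tRNA, rose (0.32 ± 0.07, limma adjusted p = 0.0344) but was not called after median-ratio rescaling. Lars2 passed without knockout 3 or control 3 and lost its call without each of the other 4 mice. Iars2 lost its call without each mouse but knockout 3. Of 8 regulators of mitochondrial biogenesis, the nuclear receptor Esrra fell (-0.54 ± 0.09, limma adjusted p = 0.0194) and the coactivator Pprc1 rose (0.44 ± 0.12, limma adjusted p = 0.0459). The call of Pprc1 was lost after median-ratio rescaling and without any 1 of the 6 mice. Esrra passed without knockout 1 or knockout 3 and not without the other 4 mice (adjusted p up to 0.0596).

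**Figure D5:**
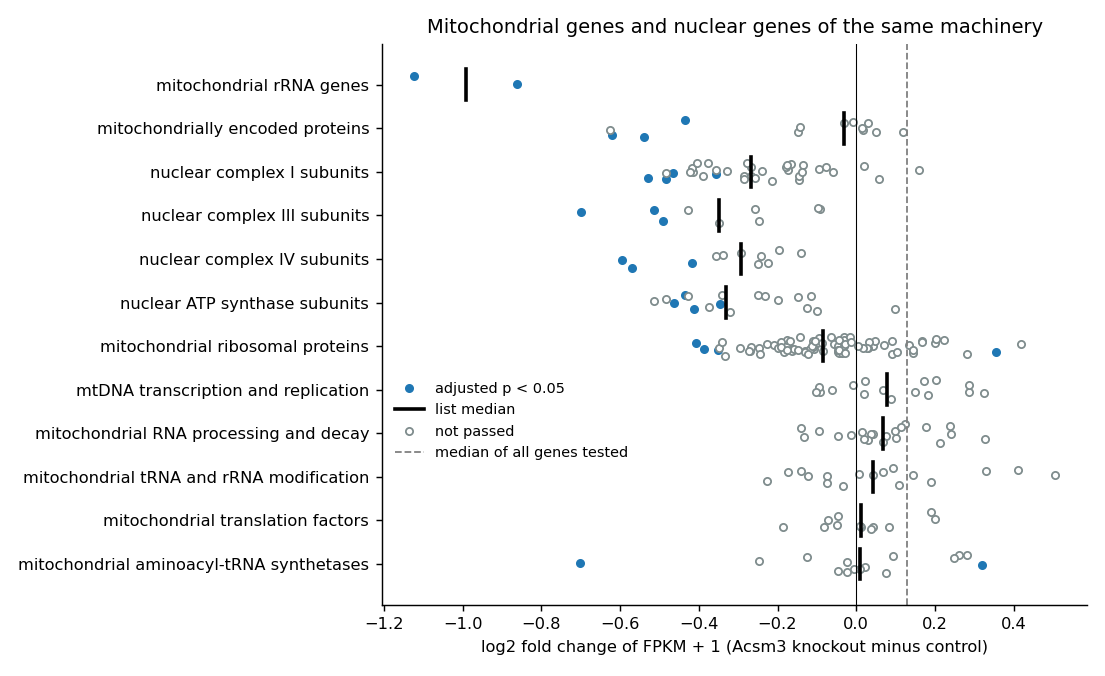
Log2 fold change of FPKM + 1 (knockout minus control) of each tested gene in 12 groups, filled where the adjusted p was under 0.05, with the median of each group as a black line and that of all genes tested as a dashed line. The rRNAs lie at -1.12 and -0.86, the mitochondrially encoded proteins at a median of -0.03, the nuclear respiratory subunits at medians between -0.35 and -0.27, and the genes of mitochondrial DNA expression near 0.

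RNA of several cell type markers also differed between the groups, beside 13.9% higher and 2.61% lower of all genes tested (limma). Summed over 12 hepatocyte markers, FPKM were 36201 to 40518 in knockouts and 49338 to 58210 in controls. Most of these sums was Alb alone, at a mean of 22584 FPKM in knockouts and 34484 FPKM in controls. Of the 12, 4 fell (Alb, Ttr, Pck1 and Hpd) while Hnf4a rose, a call lost after median-ratio rescaling. Summed over 10 macrophage markers, FPKM were 420 to 797 in knockouts and 258 to 385 in controls, with 5 of 10 higher. Over 10 stellate cell and fibroblast markers they were 97.1 to 136 in knockouts and 43.1 to 52.0 in controls, with 8 of 10 higher. Endothelial markers summed to 79.5 to 103 in knockouts and to 61.4 to 71.6 in controls, with 3 of 8 higher. Cholangiocyte markers summed to 34.1 to 66.7 in knockouts and to 13.5 to 16.1 in controls, of which only Spp1 was tested (higher), and Krt7 and Cftr had means under 0.1 FPKM. Spp1 alone, at a mean of 45.7 FPKM in knockouts and 13.7 FPKM in controls, made up most of the cholangiocyte sums. Neutrophil markers summed to 3.11 to 9.15 in knockouts and to 1.23 to 2.39 in controls, with 2 of 3 tested higher and Ly6g, Mpo and Elane under 0.1 FPKM. Lymphocyte markers, at 1.403 to 3.74 in knockouts and 1.08 to 1.70 in controls, and erythroid markers, at 333 to 534 in knockouts and 255 to 371 in controls, overlapped between the groups. Of 5 tested erythroid markers 1 was higher, Alas2 (0.59 ± 0.15, limma adjusted p = 0.0409). Its call was lost after median-ratio rescaling and held in 1 of 6 fits that left out a mouse. After median-ratio rescaling, where 7.64% of all genes tested were higher, 3 of the macrophage, 6 of the stellate cell and fibroblast and 2 of the endothelial markers were higher. The calls of the 5 macrophage, the 3 endothelial, the 2 neutrophil and the 4 lower hepatocyte markers each held in 1 of 6 fits that left out a mouse, while 6 of the 8 stellate cell and fibroblast calls held in all 6. The part of these markers in the mitochondrial differences was not tested.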

How the data were processed

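Per the labels' protocols, liver RNA was poly(A)-enriched and made into libraries, 1 for each of 6 mice. The authors deposited FPKM values for 28450 genes with positions. Per the submitters' processing notes, HISAT2 2.0.4, Bowtie2 2.2.6, StringTie 1.3.0 and GRCm38 were used, with no role given. The annotation used, the strand setting and the counting of multiply mapping fragments are not stated. Members were rows whose symbol begins with mt-, and all 15 had their GENCODE M21 (GRCm38) position.

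For the 10996 genes that averaged 1 FPKM or more, log2(FPKM + 1) was fitted with limma 3.58.1 in R 4.3.3 (lmFit, eBayes with trend). Differences are knockout minus control, and p-values were adjusted over all genes tested (Benjamini-Hochberg, threshold 0.05). The procedure was tested on simulated data. The limma p-values set the difference between the groups against the spread among 3 animals a group, moderated over all genes tested. Library totals were estimated from the steps in low FPKM, and 99.6% to 99.7% of values under 20 fragments came within 0.1 of whole. Nuclear copies were sought with BLAST 2.17.0 (at least 100 bases and 90% identity). Tables and figures were made with matplotlib 3.10.9, numpy 2.4.6 and pandas 2.3.3 under Python 3.11.15.

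The members, gene lists and tests were chosen with earlier results of these data known. All members were named. From each list of mitochondrial nuclear genes, up to 4 called genes of largest change were named, or, in lists with no call, the 2 with the smallest p, and copies averaging at least 1 FPKM. Marker lists are given as sums and counts. Alternatives were pseudocounts of 0.1 and 5, no filter or a filter at 5 FPKM, 3 rescalings, other limma settings, a replicate block, voom on recovered fragments and leaving out each mouse.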

Additional observations from a re-analysis of the deposited data

How the results depend on the processing

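mt-Rnr2 was called lower in each of 18 alternatives (adjusted p 0.00153 to 0.0394), mt-Rnr1 in 14 of 18, mt-Nd1 in 12 of 18, mt-Nd2 in 10 of 18 and mt-Nd3 in 11 of 19, and none of the 5 changed sign.

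The 3 protein and 2 rRNA calls became 0 and 1 with no filter on low values and 0 to 3 and 1 to 2 when 1 mouse was left out. The 0 protein genes called higher (0 at an unadjusted p under 0.05, and 0 with voom) became 1 with quantile normalization, where mt-Cytb was at 0.38 (adjusted p = 0.0438) and mt-Nd2 at -0.04 (adjusted p = 0.824), and the cause was not tested. Over all genes, 287 lower and 1532 higher calls became 106 and 544 with no filter, 736 and 840 after median-ratio scaling, 603 and 752 with quantile normalization, 537 and 2742 with array weights, and 55 to 284 and 223 to 1987 without 1 mouse. A filter at 5 FPKM left 848 higher. Fits with 1 mouse fewer also have less power.

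With the replicate block, 1 protein gene was called, as mt-Nd2 (adjusted p = 0.0641) and mt-Nd3 (adjusted p = 0.0522) were lost. Deviations of same-numbered mice correlated at 0.111, 0.0918 and 0.187, and each of the 6 mice correlated best with its own number. Whether the numbers mark pairs was not tested, and the main fit took the mice as unpaired.

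Genes near 0 changed sign. After median-ratio scaling mt-Nd4 was at -0.15, mt-Nd5 at -0.12, mt-Nd6 at -0.14, mt-Atp6 at -0.15 and mt-Cytb at -0.047. With array weights mt-Nd4 was at -0.015 and mt-Nd6 at -0.0038. With a common nuclear sum mt-Atp8 was at 0.036 and mt-Nd4l at 0.015, and with copies summed mt-Atp6 was at -0.045. Without 1 mouse mt-Nd4 ranged from -0.041 to 0.048, mt-Nd5 from -0.023 to 0.12, mt-Nd6 from -0.027 to 0.073, mt-Atp6 from -0.042 to 0.077, mt-Atp8 from -0.28 to 0.24 and mt-Nd4l from -0.42 to 0.25.

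The knockout minus control share of FPKM held by the 15 genes was -1.78 percentage points, -1.09 as a share of fragments and -1.04 for the protein genes alone. Fewer fragments limit mt-Atp8 (61 to 136 per library) most.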
